A study of Mus musculus with 6 samples.

Results

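The Frizzled and LRP receptors are the entry point of Wnt signals into the cell. They were measured here in mouse colon epithelium through every probe set that the annotation of the Mouse Genome 430 2.0 array assigns to exactly 1 of 9 genes, namely Fzd1, Fzd2, Fzd4, Fzd5, Fzd6, Fzd7, Fzd8, Lrp5 and Lrp6. A probe set is a small group of short probes that reads transcripts of a gene, and 20 of the 45101 probe sets on the array met this rule. Lrp5 had 1 probe set, 5 genes had 2 and Fzd2, Fzd4 and Fzd6 had 3 each. The comparison was between genotypes. The 3 knockout arrays carried epithelium of vil-Cre-Bcl9-/-/Bcl9l-/- mice, pooled from 3, 2 and 2 animals, and the 3 wild-type arrays (numbered 4, 5 and 6) carried pools of 3 animals each. Both genotypes had a 129SvEv/C57BL/6/DBA/2 mixed background and an age of 12 weeks, and the epithelium was released with EDTA and not sorted. The vil-Cre transgene, which acts in intestinal epithelium, is named for the knockouts only, so an effect of Cre cannot be told apart from loss of Bcl9 and Bcl9l.

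Frizzleds are membrane-spanning receptors that bind Wnt through a cysteine-rich outer domain and recruit Dishevelled inside the cell. LRP5 and LRP6 are co-receptors whose inner tail, once phosphorylated, holds Axin and so lets beta-catenin accumulate, and beta-catenin then drives transcription from TCF sites together with BCL9 or BCL9L. Frizzleds also work without LRP in planar cell polarity, where VANGL and CELSR proteins are their partners. In the mouse gut, Fzd7 is known as a receptor of crypt stem cells and Fzd5 for its part in Paneth cell maturation.

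Because BCL9 proteins act at TCF sites, the sequence upstream of the receptor genes was searched on both strands for the TCF core NNCAAAG, where each N was A or T. Of the 9 genes, 4 had an entry in the RefSeq promoter table (build GRCm38.p6), and the 250 bases before the annotated start held such letters in 1 of them, Fzd7. Across the table, 14.8% of 32851 entries held them. The stretches of Fzd7 and Fzd5 are shown because these are the receptors named above for roles in the mouse gut. Whether those roles hold in this colon tissue was not tested. The capitals mark the core, which lies 130 to 124 bases before the Fzd7 start. The Fzd7 stretch is chr1:59481897-59482146 on the plus strand and the Fzd5 stretch chr1:64737751-64738000 on the minus strand, both written 5′ to 3′.
Fzd7: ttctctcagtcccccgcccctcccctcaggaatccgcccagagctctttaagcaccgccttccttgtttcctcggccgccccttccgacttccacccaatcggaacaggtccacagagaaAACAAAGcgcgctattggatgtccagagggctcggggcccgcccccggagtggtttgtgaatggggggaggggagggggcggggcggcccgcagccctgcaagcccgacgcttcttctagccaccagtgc
Fzd5: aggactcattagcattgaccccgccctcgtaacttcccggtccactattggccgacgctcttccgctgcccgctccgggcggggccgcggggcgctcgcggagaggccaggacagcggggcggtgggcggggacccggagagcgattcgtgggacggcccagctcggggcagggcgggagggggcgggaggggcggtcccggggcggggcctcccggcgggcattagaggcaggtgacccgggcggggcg
The match is a description of letters only, and no binding was measured.

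No receptor passed the test between genotypes. limma, fitted over 45037 probe sets with Benjamini-Hochberg adjustment, called 0 of the 20 receptor probe sets, and it called 0% of all probe sets. At an unadjusted p under 0.05 stood 2 of the 20, both higher in the knockouts, namely Lrp5 and 1 of the 3 Fzd6 probe sets, against 4.15% of all probe sets in either direction, 2.29% higher and 1.85% lower. The same 2 were the receptor probe sets with no overlap between the arrays of either genotype. That is 10% of the 20, near the 9.69% of all probe sets (4.93% higher and 4.76% lower), so such separation was not particular to the receptors. The remaining probe sets gave differences on both sides of 0. In all, 12 were above (50.4% of all probe sets were) and 8 below, with a median log2 difference of 0.021, against 0.0018 over all probe sets. Values are on the log2 scale of the authors' RMA, and differences are knockout minus wild type.

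The intervals limited the size of change in the readings for most probe sets, which is less than a limit on the transcripts. The 95% interval lay inside a 2-fold change in either direction for 19 of the 20 probe sets, the exception being the brighter Fzd8 probe set, and inside a 1.5-fold change for 8. Intervals reached 0.29 to 0.71 either side of the difference. A mean below the median of all probe sets was found for 8 of the 20, all of them among the 19. Inside a 1.5-fold change, the only brighter probe sets were 1 of Fzd5 (1455604_at) and those of Lrp6. With no detection call at hand, signal above background cannot be claimed for the 8 dim ones, and their folds may be compressed. Their intervals therefore bound the reading and not the transcript.

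**Figure D1:**
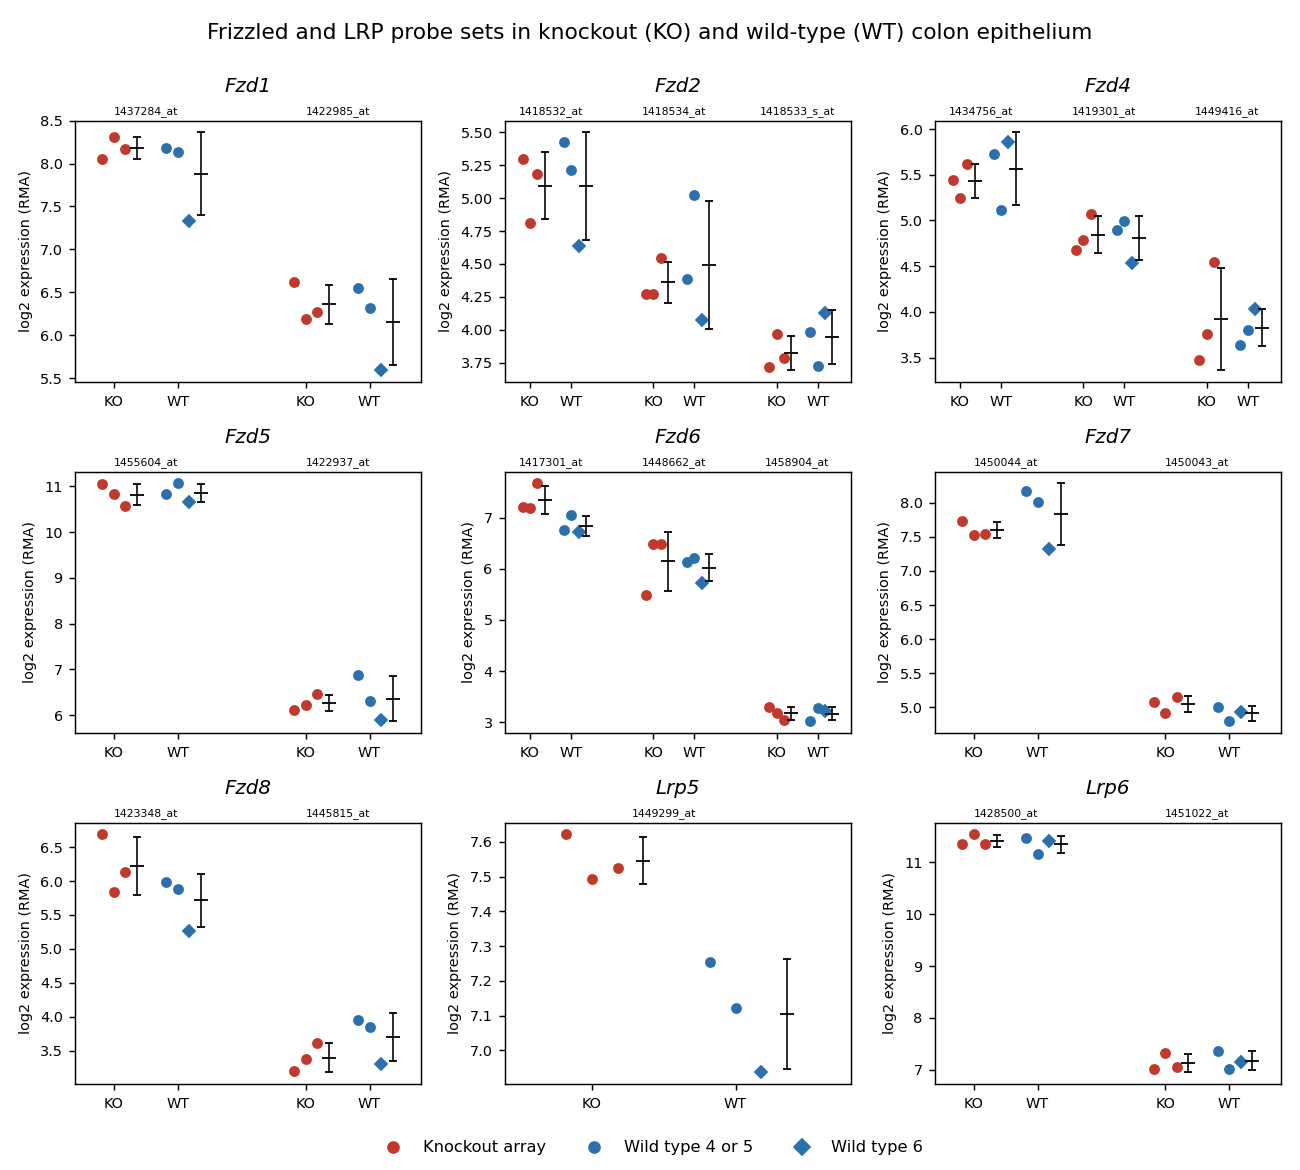
Log2 expression (RMA) of each receptor probe set in each array, with knockout (KO) left of wild type (WT), 1 panel per gene and its probe sets ordered by brightness; bars show the mean and SD of 3 arrays, and the vertical scales differ between panels. The Lrp5 arrays and those of the brightest Fzd6 probe set (1417301_at) separate by genotype, as 9.69% of all probe sets do. Wild type 6 (diamonds) lies below the other arrays for both Fzd1 probe sets and for the brighter ones of Fzd7 and Fzd8.

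Wild type 6 stood apart before any receptor was considered. It read 82.5 on the leading principal component over all probe sets (40.2% of the variance), where the other 5 arrays read -34.4 to 9.54. B and plasma cell markers averaged 4.38 to 4.50 in the 3 knockout arrays, against 5.05 in wild type 4, 4.70 in wild type 5 and 7.49 in wild type 6. Fibroblast markers averaged 4.99 to 5.43 in the 3 knockout arrays, against 5.36 in wild type 4, 5.33 in wild type 5 and 6.01 in wild type 6. The 15 epithelial markers averaged 12.26 to 12.30 in the knockouts, against 12.24 to 12.28 in wild type, all 15 at or above the median of all probe sets, so the labelled tissue carried its defining markers in every array. The targeted genes gave no check of the labels: Bcl9 differed by 0.11 and -0.04 and Bcl9l by 0.22, 0.15 and -0.20 in their probe sets, and the labels do not say whether these probes lie in the deleted parts. Receptor differences are therefore given with all arrays and without wild type 6.

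Lrp5, the co-receptor known from bone mass and retinal vessels, separated by genotype in its only probe set. That probe set (1449299_at) read 7.62, 7.49 and 7.53 in the knockouts, against 7.25, 7.12 and 6.94 in wild type. Every knockout array lay above every wild-type array, as in 4.93% of all probe sets, and the knockouts lay close together. The knockout mean was 7.55 ± 0.07, against 7.10 ± 0.16 for wild type (SD, n = 3 each), a 1.36-fold difference (0.44, SE 0.13, 95% interval 0.14 to 0.74). It did not pass (limma unadjusted p = 0.0103, adjusted p = 0.991), and without wild type 6 the difference was 0.36 (0.05 to 0.67). With a single probe set there is no other reading of Lrp5 on the array to set beside it.

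Lrp6, the co-receptor most widely required for beta-catenin signalling in the mouse embryo, did not show this. Its brighter probe set (1428500_at) read 11.35, 11.54 and 11.35 in the knockouts, against 11.47, 11.16 and 11.41 in wild type. The groups overlapped, and the difference was 0.06 (95% interval -0.25 to 0.38), so an increase beyond 1.30-fold in the knockouts lay outside the interval. Its other probe set (1451022_at) read 7.01, 7.33 and 7.05 in the knockouts, against 7.37, 7.01 and 7.16 in wild type, which differed by -0.04 (-0.40 to 0.31). Both Lrp6 readings moved together across arrays (r = 0.84 over 6 arrays, a description without a test), with knockout 2 high and wild type 5 low in each. Without wild type 6 their differences were 0.09 and -0.05. Whether the Lrp5 and Lrp6 differences differ from each other was not tested.

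Fzd6, a Frizzled known for planar polarity in mouse skin and hair, had the other probe set whose arrays separated by genotype. Its brightest probe set (1417301_at) read 7.20, 7.18 and 7.67 in the knockouts, against 6.75, 7.06 and 6.71 in wild type. The groups did not overlap, though knockout 2 lay just above wild type 5, and knockout 3 was the highest array. The knockout mean was 7.35 ± 0.27, against 6.84 ± 0.19 for wild type (SD, n = 3 each), a 1.42-fold difference (0.51, SE 0.18, 95% interval 0.08 to 0.94; limma unadjusted p = 0.0255, adjusted p = 0.991). Without wild type 6 the difference was 0.45 (-0.04 to 0.93), and without knockout 3 it was 0.35.

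The other Fzd6 probe sets did not repeat that separation. One (1448662_at) read 5.48, 6.47 and 6.48 in the knockouts, against 6.12, 6.21 and 5.72 in wild type, with knockout 1 the lowest of all 6 arrays. Its difference was 0.13 (-0.58 to 0.84), and -0.02 without wild type 6. The third (1458904_at) was dim, at the 15.5th percentile of all probe sets, with 3.05 to 3.30 in the knockouts, against 3.02 to 3.27 in wild type. The mean of the 3 Fzd6 probe sets differed by 0.22 (SE 0.14, limma unadjusted p = 0.177).

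Fzd7 gave a different picture with and without wild type 6. Its brighter probe set (1450044_at) read 7.74, 7.53 and 7.55 in the knockouts, against 8.17, 8.01 and 7.32 in wild type. Wild type 4 and 5 lay above every knockout and wild type 6 below every knockout. With all arrays the knockout mean was 7.60 ± 0.12, against 7.83 ± 0.45 for wild type (SD, n = 3 each), so that they differed by -0.23 (95% interval -0.77 to 0.32, limma unadjusted p = 0.357, adjusted p = 0.991). Without wild type 6 the difference was -0.48 (-0.82 to -0.15, limma unadjusted p = 0.0122, adjusted p = 0.82), still not a call. With all arrays and the fibroblast marker level as a covariate it was -0.53 (limma unadjusted p = 0.048, adjusted p = 0.998). The part of that array's immune and fibroblast content in the change was not itself tested. The other Fzd7 probe set (1450043_at) read 5.08, 4.92 and 5.15 in the knockouts, against 5.01, 4.80 and 4.93 in wild type, a knockout excess of 0.14, and of 0.15 without wild type 6. The 2 probe sets of Fzd7 thus did not give the same direction, with or without that array.

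Fzd1 and Fzd2 are the close relatives of Fzd7 in sequence. The brighter Fzd1 probe set (1437284_at) read 8.05, 8.31 and 8.17 in the knockouts, against 8.19, 8.13 and 7.33 in wild type. The other 5 arrays lay close together, and wild type 6 was well below them. The difference was 0.30 with all arrays (95% interval -0.28 to 0.87) and 0.02 without wild type 6 (-0.31 to 0.35). The other Fzd1 probe set (1422985_at) also had wild type 6 lowest, with 6.62, 6.19 and 6.27 in the knockouts, against 6.55, 6.32 and 5.59 in wild type, and its difference of 0.20 became -0.08 without wild type 6. Wild type 6 thus carried most of the higher knockout mean of Fzd1 in both probe sets.

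The 3 Fzd2 probe sets all had means below the median of all probe sets. The brightest (1418532_at) read 5.29, 4.81 and 5.18 in the knockouts, against 5.42, 5.21 and 4.63 in wild type, with a difference of 0.01 that became -0.22 without wild type 6. The next (1418534_at) read 4.28, 4.27 and 4.54 in the knockouts, against 4.39, 5.02 and 4.07 in wild type (-0.13). Its difference was -0.34 without wild type 6 and 0.13 without wild type 5. The dimmest (1418533_s_at), whose suffix marks probes shared between transcripts, read 3.72 to 3.97 in the knockouts, against 3.73 to 4.13 in wild type (-0.12, and -0.03 without wild type 6). It did not follow the other Fzd2 probe sets over the 6 arrays (r = -0.64 and -0.67), and wild type 6 was its highest array while being the lowest in the other two.

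Fzd5 and Fzd8 form another closely related pair. The bright Fzd5 probe set (1455604_at, at the 95.2th percentile of all probe sets) read 11.05, 10.84 and 10.57 in the knockouts, against 10.84, 11.06 and 10.65 in wild type. The groups lay on top of each other, with a difference of -0.03 (95% interval -0.44 to 0.38), so that the interval held changes between 0.737-fold and 1.30-fold. The other Fzd5 probe set (1422937_at) read 6.11, 6.23 and 6.45 in the knockouts, against 6.87, 6.31 and 5.90 in wild type, which differed by -0.09 (-0.69 to 0.50). The wild-type arrays spanned the knockouts on both sides. Without wild type 6 the 2 differences were -0.13 and -0.33.

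Fzd8 gave opposite directions in its 2 probe sets. The brighter (1423348_at) read 6.69, 5.84 and 6.13 in the knockouts, against 5.99, 5.89 and 5.27 in wild type, with knockout 1 highest and wild type 6 lowest. Its difference of 0.50 (SE 0.28, 95% interval -0.15 to 1.16, limma adjusted p = 0.991) was nearly as large as that of Fzd6, but the groups overlapped and it was 0.28 without wild type 6. The dim one (1445815_at, 22.0th percentile) read 3.20, 3.38 and 3.62 in the knockouts, against 3.96, 3.85 and 3.30 in wild type, with a difference of -0.31 that became -0.51 without wild type 6 (limma unadjusted p = 0.0199, adjusted p = 0.837). Readings from the bright and the dim Fzd8 probe set were unrelated over the 6 arrays (r = -0.09).

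Fzd4, the receptor for norrin in mouse retinal vessels, showed no separation in any of 3 probe sets. The brightest (1434756_at) read 5.44, 5.25 and 5.62 in the knockouts, against 5.73, 5.12 and 5.86 in wild type, which differed by -0.13 (95% interval -0.65 to 0.39). The others differed by 0.03 (1419301_at, 4.68 to 5.07 in the knockouts, against 4.53 to 5.00 in wild type) and 0.10 (1449416_at, 3.47 to 4.55 in the knockouts, against 3.63 to 4.04 in wild type), where knockout 3 was the highest array in both. Without wild type 6 the 3 differences were 0.01, -0.10 and 0.20. Without wild type 5 the first was -0.36, and without knockout 3 the last was -0.21. Markers of endothelial cells, in which Fzd4 is also known, averaged 3.89 to 3.91 in the knockouts, against 3.95 to 4.08 in wild type. Of the 12 markers, 3 were higher and 9 lower in the knockouts, and 2 were at or above the median of all probe sets. Those 2, named after their values were seen, differed in opposite directions, Vwf by 0.68 and Eng by -0.19. Whether endothelial cell content differed between the genotypes was not tested. In whole preparations of this kind, fewer cells of a type and less RNA per cell cannot be told apart.

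**Figure D2:**
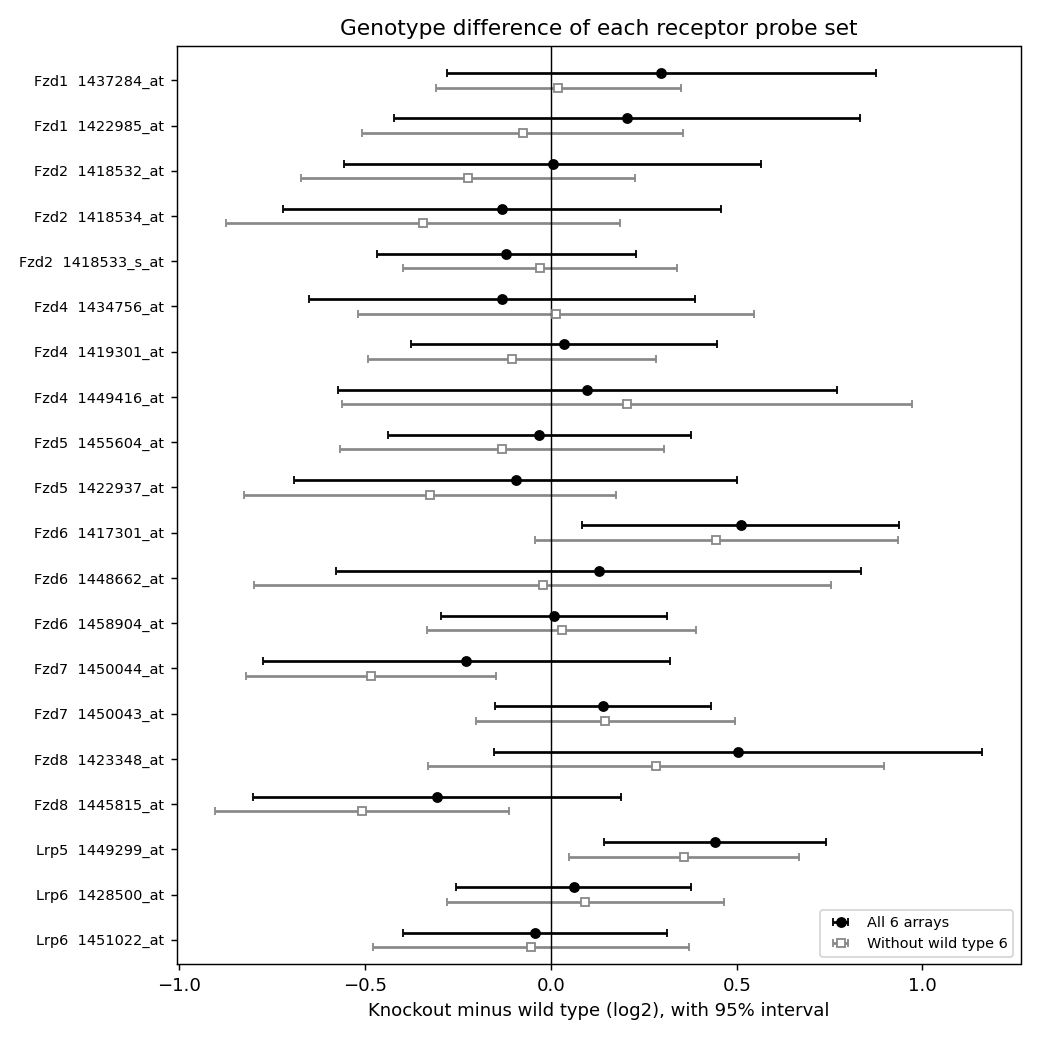
Knockout minus wild type (log2) for the 20 receptor probe sets with limma's 95% interval, from all 6 arrays (filled circles) and without wild type 6 (open squares). With all arrays the interval clears 0 for Lrp5 (0.44) and 1 Fzd6 probe set (0.51), and without wild type 6 it clears 0 for Lrp5 (0.36) and, on the lower side, for 1 probe set each of Fzd7 (-0.48) and Fzd8 (-0.51); none passed the adjusted test.

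Across the receptors as a set, wild type 6 was the array furthest from the others. As 1 of the 3 wild-type arrays it also enters every genotype difference, and its share in them was not tested. It was the lowest array for 10 of the 20 receptor probe sets, against 26.5% of all probe sets. The median receptor probe set lay 0.33 below its 6-array mean there (-0.33), where the median over all probe sets lay at -0.04. In the other arrays the receptor median ran from -0.05 in knockout 2 to 0.12 in knockout 3. Fzd1, Fzd2, Fzd4, Fzd5, Fzd6, Fzd7, Fzd8 and Lrp5 each had at least 1 probe set with its lowest value in wild type 6, whereas Lrp6 had none. Without that array, 9 probe sets were above and 11 below 0 (median -0.03, against -0.01 over all probe sets), 3 stood at an unadjusted p under 0.05 against 5.76% of all probe sets, and 0 were called against 0.00666%.

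**Figure D3:**
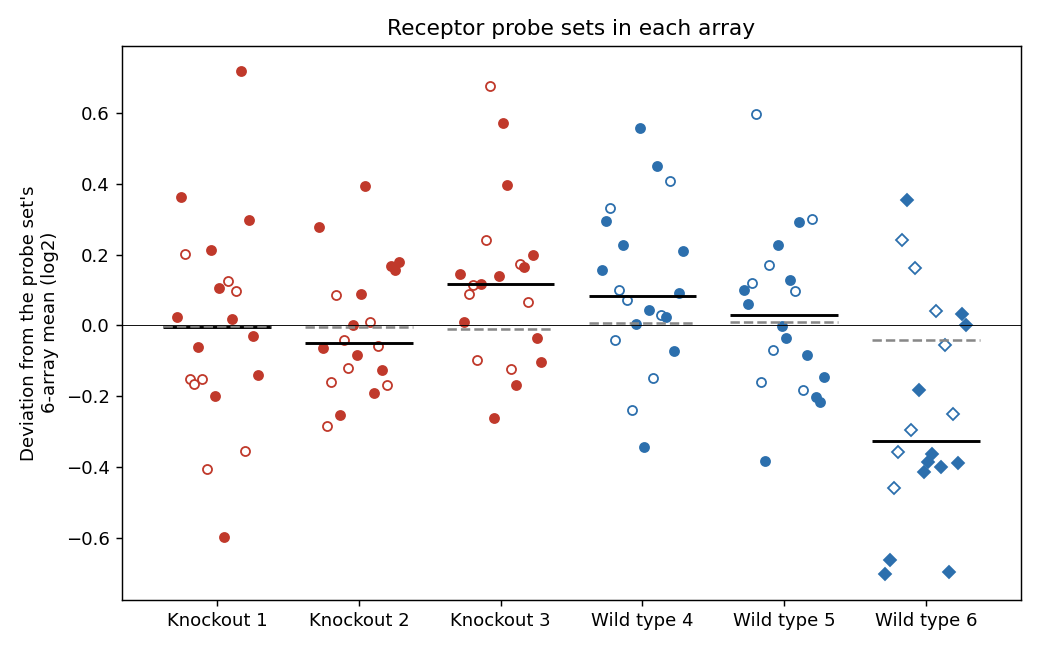
Deviation of each receptor probe set from its own mean over the 6 arrays (log2), by array; filled symbols are probe sets at or above the median of all probe sets and open symbols dimmer ones, solid lines the receptor median and dashed lines the median of all probe sets. The receptor median is -0.33 in wild type 6 and lies between -0.05 and 0.12 in the other arrays.

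Probe sets of 1 gene often disagreed. Of the 8 receptors with more than 1 probe set, Fzd1 and Fzd6 had all differences above 0 and Fzd5 had both below 0, and the other 5 had differences on both sides. Correlations over the 6 arrays between probe sets of 1 gene ran from -0.67 (Fzd2) to 0.84 (Lrp6). With the probe sets of a gene averaged, none of these 8 receptors had an unadjusted p under 0.05. Lrp5 has 1 probe set, so averaging left its difference at 0.44 and gave no second reading. Its p in that fit over fewer features (limma unadjusted p = 0.00662, adjusted p = 0.944) again did not pass.

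Among the genes that work with these receptors, 207 probe sets of 96 genes were read in 7 lists, chosen with earlier results of these data known, and limma called 0 of them. At an unadjusted p under 0.05 stood 14 of the 207, 8 higher and 6 lower in the knockouts, against 4.15% of all probe sets. The median difference of all 207 was -0.03.

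Partners of Frizzled in planar cell polarity included 4 of 16 probe sets at an unadjusted p under 0.05, all higher in the knockouts. At that threshold 2.29% of all probe sets were higher and 1.85% lower. The list median was 0.04 (11 above and 5 below 0). Vangl1, a membrane protein that opposes Frizzled across the cell border, read 6.76, 6.84 and 6.71 in the knockouts, against 6.01, 6.33 and 5.71 in wild type, in 1 of its probe sets (0.75, SE 0.17, limma adjusted p = 0.991). Its relative Vangl2 read 6.04, 6.03 and 6.19 in the knockouts, against 5.72, 5.77 and 5.61 in wild type (0.38, SE 0.11). In these 2 probe sets, as in 1 of the 3 Fzd6 probe sets, every knockout array lay above all wild-type arrays. That held for 4.93% of all probe sets, and these 2 genes were named for the smallest p of the list. The remaining 2 of the 4, a second Vangl1 probe set (0.38) and the cadherin Celsr1 (0.34), fell outside the naming rule and are named after their values were seen. Other Vangl2 probe sets differed by 0.07 and 0.09. The relatives of Celsr1, likewise named after their values were seen, differed by 0.16 and -0.006 (Celsr2) and -0.02 (Celsr3). None of these passed, and no test was made of the list.

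The ligand side held 38 probe sets of Wnt genes, norrin, Porcn and Wls, with 12 above and 26 below 0 (median -0.08). Wls, which carries Wnt proteins to the cell surface, read 8.32, 7.89 and 8.01 in the knockouts, against 7.73, 7.45 and 6.49 in wild type, in 1 probe set (0.85, SE 0.32, limma adjusted p = 0.991). Wild type 6 was again the lowest array, and the difference was 0.48 without it. A second Wls probe set differed by 0.41 (0.34 without wild type 6) and was the only other one of the list at an unadjusted p under 0.05. Wnt16 differed by -0.22 with values of 3.89 to 3.94 in the knockouts, against 4.09 to 4.14 in wild type.

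Antagonists that act on Wnt ligands, Frizzled or LRP, not all of them secreted, had 11 probe sets above and 29 below 0 (median -0.07). At an unadjusted p under 0.05, 4 were lower in the knockouts, as were 1.85% of all probe sets. The Wnt-binding inhibitor Wif1 was dim in both groups, at 2.58 to 2.65 in the knockouts, against 2.90 to 3.36 in wild type (-0.45). Igfbp4, which can bind Frizzled and LRP6, read 5.49, 5.40 and 7.13 in the knockouts, against 6.93, 7.47 and 9.40 in wild type (-1.93, SE 0.73), and a second probe set differed by -1.92. Its other probe sets differed by -1.36 to -0.26, so every Igfbp4 probe set counted among the 29 below 0. The fourth was Sfrp2 (-0.75), outside the naming rule. Wild type 6 was the highest array for Igfbp4 and Sfrp2, as it was for the fibroblast markers, and the part of fibroblasts in these differences was not tested. Without wild type 6 the Igfbp4 probe sets at -1.93 and -1.92 differed by -1.19 and -1.04, and Sfrp2 by -0.38.

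Genes that set receptor amount at the surface had 8 probe sets above and 17 below 0 (median -0.10). Znrf3 and Rnf43, the ubiquitin ligases that remove Frizzleds from the membrane, differed by 0.35 and -0.003 (Znrf3) and -0.01 (Rnf43), and are named after their values were seen. Lgr5 and Rspo1, a receptor and a ligand that restrain those ligases, had the smallest p of the list, at -1.89 (SE 0.17, limma adjusted p = 0.326) and -0.79 (SE 0.25, adjusted p = 0.991), each from dim probe sets. The Lgr5 readings were 3.04, 2.84 and 2.58 in the knockouts, against 4.88, 4.76 and 4.50 in wild type, with no overlap and below the median of all probe sets in both groups. The other Lgr5 probe set differed by -0.34.

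Other Wnt co-receptors and receptor partners, a list of 20 probe sets of which 5 read Mcc, had 12 probe sets above and 8 below 0 (median 0.08). Mcc, a suppressor of beta-catenin signalling named for colorectal cancer, read 7.44, 7.45 and 7.60 in the knockouts, against 7.14, 7.04 and 7.00 in wild type (0.44, SE 0.11), while its other probe sets differed by -0.24 to 0.24. Ror2, a Wnt5a receptor, differed by 0.31 (SE 0.16) in 1 probe set, 0.17 without wild type 6, and by -0.03 in the other. Among the other Frizzled class genes, 2 probe sets were above and 10 below 0 (median -0.03). Smo, the hedgehog transducer, differed by 0.59 (SE 0.23) in 1 probe set and by -0.23 and -0.03 in the others. Fzd10 differed by -0.28 (SE 0.12) in 1 probe set and by -0.0008 in the other. Receptor-proximal transducers such as the Dishevelled, Axin and casein kinase genes had 0 of 56 probe sets at an unadjusted p under 0.05 (median 0.03), and the 2 genes nearest to it were so in a single probe set each. Cdk14 differed by -0.55 in that probe set and by -0.14 and -0.10 in its others, and Csnk1a1 by 0.74, where its other 4 lay between -0.03 and 0.09.

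**Figure D4:**
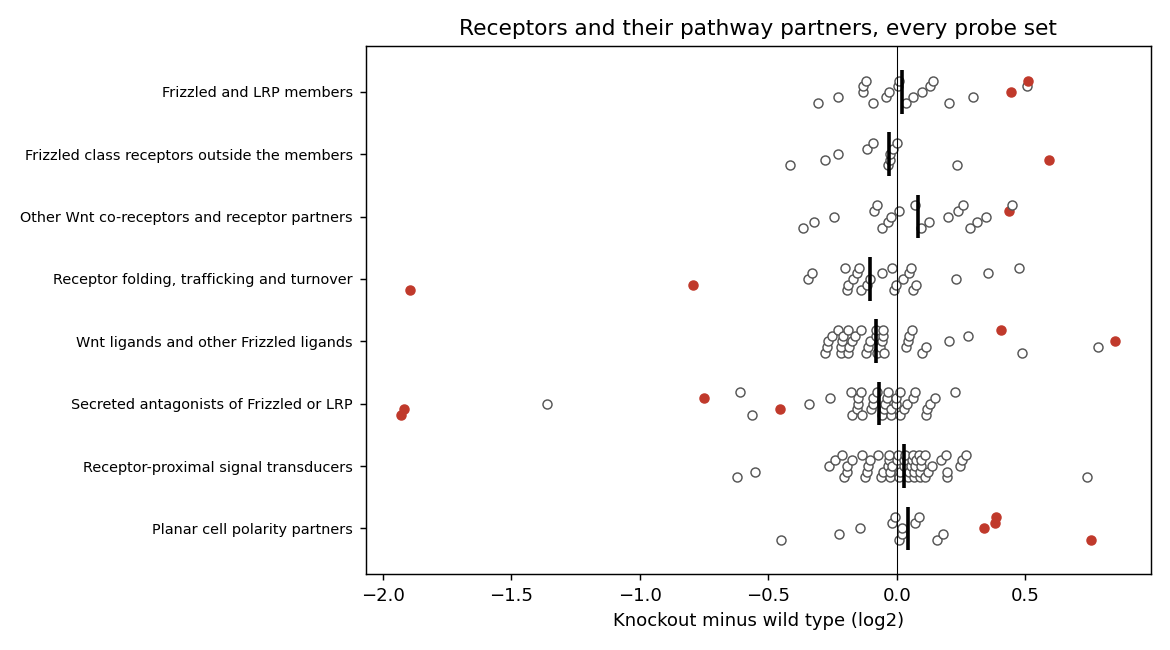
Knockout minus wild type (log2) for every probe set of the receptors and of 7 lists of pathway partners; filled points have an unadjusted p under 0.05 and black bars are list medians. List medians lie between -0.10 and 0.08, and none of the points passed the adjusted test.

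For each receptor the genes with the most similar course over the 6 arrays were sought among the brightest probe sets of 11123 genes. The highest Pearson r was 0.99 for Fzd1 (with Fndc3b), 0.995 for Fzd2 (Cln8), 0.998 for Fzd4 (Utp14a), 0.99 for Fzd5 (Yae1d1), 0.98 for Fzd6 (Tnfaip8l1), 0.99 for Fzd7 (Trpc4ap), 0.998 for Fzd8 (Nudt2), 0.99 for Lrp5 (Trim68) and 0.98 for Lrp6 (Scnn1b). The next in order were Amot, Tusc3, Psen2, Arfgap3, Hook1, Ntpcr, Ufsp2, Bivm and Paxbp1. With 6 arrays and so many genes such values arise in number: between 6 genes (Fzd4) and 111 genes (Fzd8) exceeded an r of 0.95 with a receptor. All points share the same 6 arrays, so these are descriptions only.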

How the data were processed

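Colon epithelium of 3 knockout and 3 wild-type pools of mice was read on arrays of the type Mouse Genome 430 2.0. Per the labels' protocols, the tissue stood in EDTA (3 mM) with DTT (0.05 mM) for 1.5 to 2 hours, and 30 ng of total RNA was amplified. The deposited values are log2 expression values that the authors made with RMA, per the submitters' processing notes; no RMA version is given, and their range (1.78 to 14.4) shows the log2 scale. Scanner files, batches and detection calls were not analysed here. Arrays have no read depth, so their number limits the precision.

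Of 45101 probe sets, 64 controls were left out and 45037 tested, 34945 of them with 1 gene symbol. No filter on low values was applied. The genotypes were compared by limma 3.58.1 under R 4.3.3 (two-sided, no covariate), adjusted by Benjamini-Hochberg over all tested probe sets, with a threshold of 0.05. The fit was checked on simulated data. Each array is a separate pool, so p-values reflect how pools differ. The members, lists and tests were chosen with earlier results of these data known. All members were named, as were the 2 genes of each pathway list with the smallest p and the 2 genes most like each member; other genes are marked. Alternatives were other scalings, filters, variance models, covariates, gene-level values and leaving out each array.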

Additional observations from a re-analysis of the deposited data

How the results depend on the processing

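No receptor or pathway probe set was called under any of the 16 settings tried (smallest adjusted p of a receptor 0.82), and the array as a whole gave 0 calls in each except without wild type 6, where 3 were called. The count of receptor probe sets at an unadjusted p under 0.05 was 1 to 3 when single arrays were left out (1 without knockout 3 or wild type 4) and 1 with the probe sets of a gene averaged, the last from fewer features. The receptor median ran from -0.03 to 0.10 when single arrays were left out and was -0.10 with the fibroblast level as a covariate. Of the 20 receptor probe sets, 7 kept the sign of their difference in every setting that included them (among them Lrp5 at 0.35 to 0.52 and the brightest Fzd6 probe set at 0.35 to 0.62). The other 13 changed it at least once, all uncalled, and the cause was not tested. Filters, the fit with an intensity trend and the choice of the brightest probe set leave a difference unchanged by construction. A sign could therefore change only in the other settings. The fit with the fibroblast level as a covariate again had 2 receptor probe sets at an unadjusted p under 0.05, but not the same 2. With the fibroblast level these were Fzd7 (1450044_at, -0.53, limma unadjusted p = 0.048) and Fzd8 (1445815_at, -0.55, limma unadjusted p = 0.041), both lower in the knockouts, while the p was 0.064 for Lrp5 and 0.092 for Fzd6 (1417301_at). Knockout 1 was the only knockout pool made from 3 mice, the number used for each wild-type pool. With the number of mice as a covariate, the genotype difference therefore rested on knockout 1 alone, and only its size is given. That difference was 0.52 for Lrp5, 0.97 for Fzd8 (1423348_at) and 0.36 for Fzd6 (1417301_at). Knockout 1 was the highest array for Lrp5 and for this Fzd8 probe set. No paired analysis was possible because the genotypes share no replicate numbers. The 3 arrays per genotype and the dim readings of 8 of 20 receptor probe sets limit what could be seen.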
